A study of Rattus norvegicus with 8 samples.

Results

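Translation factors and aminoacyl-tRNA synthetases are the proteins that load messages onto ribosomes, move ribosomes along them and charge tRNAs with amino acids. Their genes were picked by symbol: names starting with Eif or Eef and a digit, without the eIF2 kinases, and names of the Aars1 type together with Farsa and Farsb. Of 14506 named genes on the arrays, 80 met this rule: 40 initiation factor genes, 11 genes of elongation factors and the enzymes that modify them, 18 cytosolic and 11 mitochondrial synthetase genes. Roles too were read from the symbols alone, and synthetases were split by the last character of the symbol. A role can therefore hold genes of other function, such as the eIF4E-binding proteins among the initiation factors and the scaffold gene Eef1e1 among the elongation genes. Where several probe sets measured a gene, the brightest on average stood for it. The members were measured in livers of male wistar rats aged 6 to 10 weeks, perfused for 180 min with Krebs-Henseleit buffer, a bicarbonate salt solution. In 4 samples the buffer was hypoosmotic (225 mosm/L), which makes liver cells take up water and swell, and in 4 it was normoosmotic (305 mosm/L). Values are log2 intensities from whole-transcript arrays, changes are differences of group means on that scale, hypoosmotic minus normoosmotic, and levels of different genes cannot be set against each other. Since nothing in the labels ties each sample to an animal of its own, the spread behind the p-values is that between these samples and may be technical, and 4 arrays a group limit the precision.

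In initiation, eIF2 carries the initiator tRNA to the small ribosomal subunit, eIF2B recharges eIF2 with GTP, eIF3 organises the complex, and the eIF4 proteins bind the mRNA cap and unwind the leader. eIF5 and eIF5B then trigger GTP hydrolysis and subunit joining, after which eEF1A delivers charged tRNAs and eEF2 moves the ribosome on. Each amino acid has its own synthetase, and mitochondria use a largely separate set encoded in the nucleus. Liver adjusts translation to amino acids, hormones and cell volume, mostly by phosphorylation of these factors, which RNA levels do not show.

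In hypoosmotic livers 8 of 40 genes counted as initiation factors were lower. They were genes of eIF2B, eIF3, the eIF4 proteins, eIF5 and eIF5B, together with Eif4enif1, whose product binds eIF4E. None of 11 elongation genes passed, where 7.06% of all genes did. Of the 11, 2 had an unadjusted p under 0.05 (limma), as did 2997 of all 14506 genes. The difference between initiation and elongation genes was not tested. Of the 80 genes, 12 were lower and 1 was higher (limma, Benjamini-Hochberg adjusted p under 0.05 over all 14506 genes), where 4.61% of all genes were lower and 2.45% higher. In shares, 15% of the members were lower. Without regard to the test, all 4 hypoosmotic values lay below all 4 normoosmotic values in 17 members, a pattern shown by 8.2% of all genes, and above them in 6, a pattern shown by 5.32%. Among the 2170 genes at or above the members' median level, 8.06% were lower, and among the 40 members at or above it, 7 were. In 15.1% of these 2170 genes all hypoosmotic values lay below all normoosmotic ones, and in 8.16% above them. The same held for 10 and 0 of the 40 members. The 12 lower genes were Eif2b1, Eif3a, Eif3b, Eif4enif1, Eif4a2, Eif4e, Eif5, Eif5b, Hars1, Vars1, Cars1 and Yars2, and the higher one was Rars2. The median change was -0.10 over the 80 members and 0.01 over all genes, and 53 of the 80 changes were below 0, against 6773 of 14506. Removing hypoosmotic replicate 2 left 6 lower members, and removing normoosmotic replicate 1, 2, 3 or 4 left 7, 7, 5 and 6. Removing any of the other 3 arrays left 10 to 13. Eif4enif1, Eif5, Hars1, Vars1, Yars2 and Rars2 passed whichever of the 8 arrays was removed. Centring each array on its median gave the same 12 and 1 members, while the split over all genes went to 732 lower and 234 higher, against 669 lower and 355 higher as deposited.

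**Figure D1:**
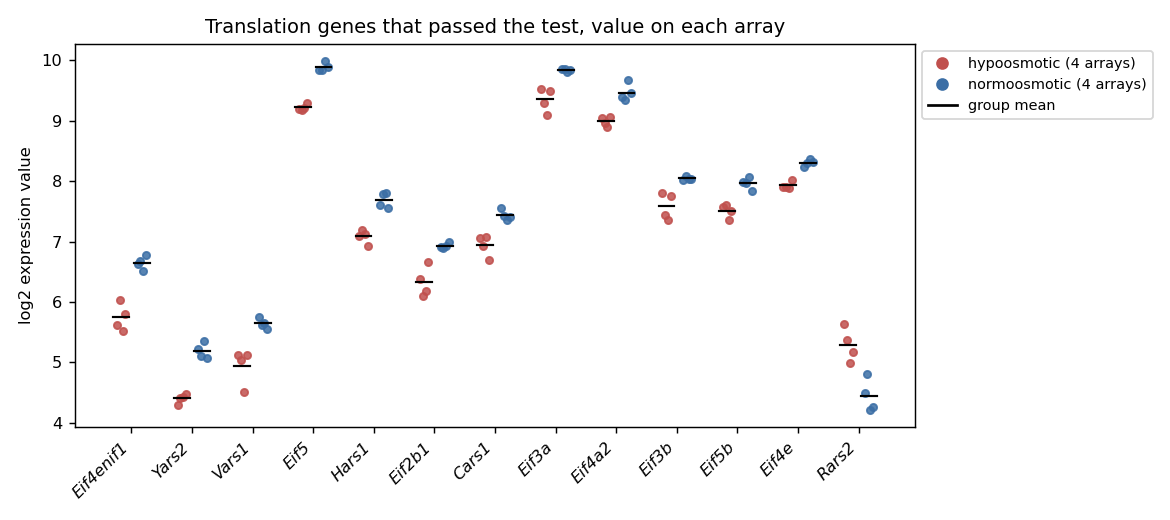
Log2 expression value (vertical axis) of the 13 translation genes past the threshold on each of the 4 hypoosmotic and 4 normoosmotic arrays, with bars at the group means, genes ordered by their change. The 4 points of one group lie apart from the 4 of the other for every gene shown, which passing the test favours, and Rars2 alone has the hypoosmotic points on top.

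The eIF2 and eIF2B genes had 1 lower member of 10, where 4.61% of all genes were lower, so this call says little about the role. Their median change was -0.08, which was -0.13 without hypoosmotic replicate 1. Eif2b1 encodes the alpha subunit of eIF2B, a regulatory subunit through which phosphorylated eIF2 inhibits the exchange. Its values were 6.38, 6.10, 6.19 and 6.67 on the hypoosmotic arrays, against 6.91, 6.89, 6.92 and 6.99 on the normoosmotic arrays. The normoosmotic arrays lay within 0.1 of each other and all 4 hypoosmotic arrays fell below them, with replicate 4 the closest. Eif2b1 was 1.51-fold lower (log2 change -0.59 ± 0.13 SE, adjusted p = 0.0204, limma), and passed after removal of an array in 5 of 8 cases (0.00857 to 0.0585, highest without hypoosmotic replicate 2), missing the threshold also without normoosmotic replicate 3 or 4. Eif2s1, the eIF2 alpha subunit that the stress kinases phosphorylate, had 7.89, 7.84, 7.52 and 7.91 on hypoosmotic and 8.37, 8.21, 8.13 and 8.11 on normoosmotic arrays. Its groups did not overlap either, yet it missed the threshold (-0.41 ± 0.12 SE, adjusted p = 0.0587). It passed only when the 30% dimmest genes were left out (adjusted p = 0.0486). Eif2b5, the catalytic subunit of eIF2B, had a change of -0.06 with a 95% interval of -0.28 to 0.17. The other 7 changes lay between -0.31 and 0.21.

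Of 10 measured eIF3 genes 2 were lower, where 4.61% of all genes were, and both encode large core subunits. Eif3a, the largest subunit, had 9.52, 9.29, 9.10 and 9.49 on hypoosmotic arrays, against 9.86, 9.86, 9.81 and 9.83 on normoosmotic arrays. Eif3b, which holds the peripheral part of the complex together, had 7.81, 7.44, 7.36 and 7.75 on hypoosmotic arrays, against 8.02, 8.09, 8.03 and 8.04 on normoosmotic arrays. In both genes the normoosmotic values were almost equal, and hypoosmotic replicates 2 and 3 were the lowest. Eif3a was 1.40-fold lower (-0.49 ± 0.11 SE, adjusted p = 0.0263) and Eif3b 1.37-fold lower (-0.46 ± 0.12 SE, adjusted p = 0.0441). With 1 array left out, Eif3a passed in 3 of 8 fits (0.0277 to 0.0703) and Eif3b in 2 (0.0395 to 0.115), both highest without hypoosmotic replicate 2. Eif3b did not pass when all probe sets were tested together (adjusted p = 0.0615). None of the 10 passed once hypoosmotic replicate 2 or any 1 of the 4 normoosmotic arrays was removed, and 1 did once hypoosmotic replicate 3 was. The 8 subunit genes that did not pass had changes from -0.37 to 0.07, and the median of the 10 was -0.14.

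The eIF4 group, cap binding and unwinding, had 3 lower members of 12, where 4.61% of all genes were lower, and a median change of -0.21. Eif4enif1 encodes 4E-T, which binds eIF4E, carries it into the nucleus and holds silenced messages in processing bodies. It had 5.62, 6.04, 5.52 and 5.81 on hypoosmotic arrays, against 6.63, 6.68, 6.51 and 6.78 on normoosmotic arrays. The gap between the groups, with the nearest arrays at 6.04 and 6.51, was wider than the range of the normoosmotic arrays. It was 1.87-fold lower (-0.90 ± 0.13 SE, adjusted p = 0.00442). Eif4e, the cap-binding protein itself, had 7.91, 7.91, 7.89 and 8.02 on hypoosmotic arrays, against 8.24, 8.30, 8.36 and 8.31 on normoosmotic arrays. Both groups were tight, and the fall was small, 1.29-fold (-0.37 ± 0.09 SE, adjusted p = 0.0338). Eif4e passed in 1 of the 8 fits without 1 array (0.0368 to 0.100, highest without normoosmotic replicate 3). Eif4a2, a cap-dependent RNA helicase, had 9.05, 8.96, 8.89 and 9.06 on hypoosmotic arrays, against 9.39, 9.34, 9.68 and 9.45 on normoosmotic arrays. It was 1.39-fold lower (adjusted p = 0.0240) and passed in 5 of 8 such fits (0.0330 to 0.0729, highest without normoosmotic replicate 3).

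Of the 12 genes, 1 passed once hypoosmotic replicate 2, normoosmotic replicate 3 or normoosmotic replicate 4 was removed. Eif4a1, the close paralog of Eif4a2, had separated groups as well, at 10.07, 9.90, 9.71 and 10.13 on hypoosmotic and 10.27, 10.37, 10.45 and 10.30 on normoosmotic arrays. It missed the threshold (-0.40 ± 0.11 SE, adjusted p = 0.0641), passed without hypoosmotic replicate 4 (0.0463), and the probes of the 2 paralogs may share signal. Of the genes of proteins that bind eIF4E, Eif4enif1 passed as given above, while Eif4ebp1 and Eif4ebp2, whose products inhibit eIF4E, did not. Eif4ebp1, which mTORC1 switches off by phosphorylation, had a change of 0.04 (95% interval -0.27 to 0.35, adjusted p = 0.923). For its homolog Eif4ebp2 the change was 0.31 (0.00 to 0.61, adjusted p = 0.233). The other 6 genes of the group had changes from -0.28 to 0.23.

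The upstream window of Eif4e is shown because the gene is a known target of Myc, a factor that binds the E-box, and because the window holds this motif in 2 places. The capitals mark CACGTG, which reads the same on both strands, in the 250 bases before the start site (GRCr8, chr2:229740503-229740752, plus strand, RefSeq).
Eif4e: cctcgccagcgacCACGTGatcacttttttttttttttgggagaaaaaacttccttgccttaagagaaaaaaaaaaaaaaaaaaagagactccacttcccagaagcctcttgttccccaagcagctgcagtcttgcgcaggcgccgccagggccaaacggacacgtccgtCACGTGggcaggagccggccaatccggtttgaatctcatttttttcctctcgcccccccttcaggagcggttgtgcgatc
RefSeq windows from 250 bases before to 50 after the start were found for 71 of the 80 genes, in 74 windows. CACGTG stood in 13 of the 74 (17.6%), against 6.42% of all 33469 rat windows. Of the genes that passed, Eif3a, Eif3b and Vars1 also held it, as these stretches of 30 bases show. The 13 genes with the motif had a median change of -0.21, against -0.10 for the 58 without it. The motif stood in 5 of 16 cytosolic synthetase windows and 0 of 11 mitochondrial ones, roles with medians of -0.23 and 0.21. Motif and role are thus mixed in these medians, and their difference was not tested. A match describes the letters only, and whether a factor was bound there was not measured.
Eif3a (chr1:269918978-269919007, minus strand): ccgcgagggaatCACGTGgctccttccttt
Eif3b (chr12:19334808-19334837, minus strand): actcgctgcacgCACGTGgctccgcgctag
Vars1 (chr20:3824973-3825002, minus strand): cacaaagggggaCACGTGggtgccgctggc

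Among the 8 genes of eIF1, eIF5 and eIF6, 2 were lower, where 4.61% of all genes were. The median change was -0.22, or -0.14 without hypoosmotic replicate 3. Eif5, which makes eIF2 hydrolyse its GTP when the start codon is found, had 9.20, 9.18, 9.21 and 9.30 on hypoosmotic arrays, against 9.83, 9.84, 9.98 and 9.89 on normoosmotic arrays. The 2 groups were each within about 0.15, and more than 0.5 apart. Eif5 was 1.58-fold lower (-0.66 ± 0.09 SE, adjusted p = 0.00428). Eif5b, the GTPase that joins the ribosomal subunits, had 7.58, 7.60, 7.36 and 7.50 on hypoosmotic arrays, against 7.98, 7.97, 8.07 and 7.83 on normoosmotic arrays. It was 1.37-fold lower (-0.45 ± 0.10 SE, adjusted p = 0.0243) and passed in 5 of 8 fits without 1 array (0.0372 to 0.0797, highest without normoosmotic replicate 3), so that removing normoosmotic replicate 1, 2 or 3 left 1 lower gene of the 8. Eif5a, the hypusine-containing factor, had a change of -0.11 (95% interval -0.32 to 0.11), and Eif6, which keeps free large subunits apart from small ones, one of -0.23 (-0.55 to 0.09). The other 4 changes ran from -0.39 to 0.26, and 2 of these genes, Eif1a and Eif1ax, are similar in sequence and may share probe signal.

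**Figure D2:**
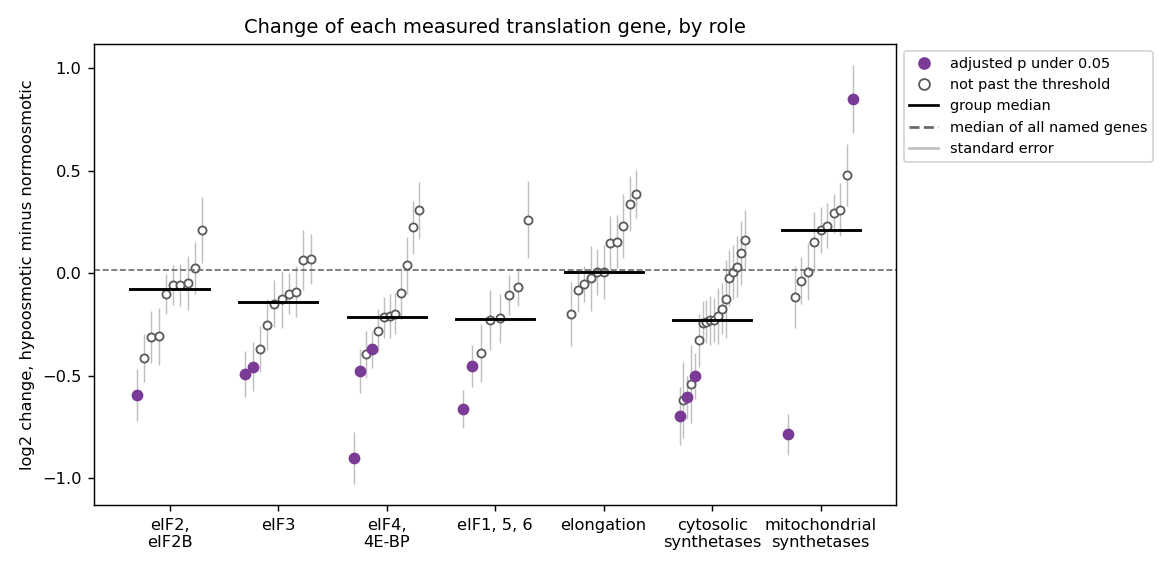
Log2 change (hypoosmotic minus normoosmotic, vertical axis) of each of the 80 genes with its standard error, grouped by role along the horizontal axis, filled where the adjusted p was under 0.05. The medians of the 4 initiation groups lie between -0.22 and -0.08, that of the cytosolic synthetases at -0.23, that of the elongation group at 0.01 and that of the mitochondrial synthetases at 0.21, beside 0.01 for all named genes (dashed line).

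None of the 11 elongation genes passed (0 at an adjusted p under 0.05, 2 at an unadjusted p under 0.05, limma), and their median change of 0.01 ran from -0.04 to 0.08 with 1 array removed. Over all genes, 2997 of 14506 had an unadjusted p under 0.05. Eef1a1, the factor that brings charged tRNA to the ribosome, had 12.12, 12.07, 12.03 and 12.05 on hypoosmotic arrays, against 12.14, 12.10, 12.17 and 12.07 on normoosmotic arrays. The groups overlapped, and the change of -0.05 had a 95% interval of -0.25 to 0.14. Eef2, the translocase, had 10.20, 10.07, 9.85 and 9.94 on hypoosmotic arrays, against 10.05, 10.06, 10.15 and 10.13 on normoosmotic arrays, a change of -0.08 (-0.31 to 0.15). The exchange factor subunits Eef1b2, Eef1d and Eef1g, which reload eEF1A with GTP, had changes of -0.03, 0.01 and 0.01, with groups that overlapped in each.

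The enzymes that act on elongation factors had the largest upward changes of this group. Eef1akmt2, a lysine methyltransferase of eEF1A, had 3.80, 3.85, 3.57 and 3.42 on hypoosmotic arrays, against 3.31, 3.20, 3.22 and 3.36 on normoosmotic arrays. The groups did not overlap, the normoosmotic values lay under 3.37, a level set from odorant receptor genes and called near background here, and the change missed the threshold (0.39 ± 0.12 SE, adjusted p = 0.0739). It passed with array weights (adjusted p = 0.0361) and without hypoosmotic replicate 4 (adjusted p = 0.0356). Eef2k, the kinase that halts elongation by phosphorylating eEF2, had 3.71, 3.97, 4.19 and 3.97 on hypoosmotic and 3.62, 3.58, 3.88 and 3.40 on normoosmotic arrays (0.34 ± 0.13 SE, adjusted p = 0.169).

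Of the 18 synthetase genes counted as cytosolic by their symbols 3 were lower and 0 higher, where 4.61% and 2.45% of all genes were. Changes were below 0 in 14 of the 18, against 6773 of 14506 over all genes, and the median of the 18 was -0.23. Hars1, the histidyl enzyme, had 7.10, 7.19, 7.13 and 6.92 on hypoosmotic arrays, against 7.61, 7.78, 7.81 and 7.56 on normoosmotic arrays. It was 1.52-fold lower (-0.60 ± 0.11 SE, adjusted p = 0.00926), and its second, dimmer probe set differed by -0.54. Vars1, the valyl enzyme, had 5.13, 5.04, 4.51 and 5.12 on hypoosmotic arrays, against 5.76, 5.62, 5.65 and 5.56 on normoosmotic arrays. Hypoosmotic replicate 3 was far below the rest, and the other 3 arrays were also under all normoosmotic ones. Vars1 was 1.62-fold lower (-0.70 ± 0.14 SE, adjusted p = 0.0160). Cars1, the cysteinyl enzyme, had 7.06, 6.93, 7.07 and 6.69 on hypoosmotic arrays, against 7.56, 7.43, 7.36 and 7.41 on normoosmotic arrays. It was 1.42-fold lower (-0.50 ± 0.11 SE, adjusted p = 0.0237) and passed in 3 of 8 fits without 1 array (0.0253 to 0.0667, highest without normoosmotic replicate 1).

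The threonyl and tryptophanyl genes had changes as large that did not pass. Tars1 had 9.08, 8.74, 8.40 and 8.28 on hypoosmotic and 9.44, 9.47, 8.92 and 9.14 on normoosmotic arrays (-0.62 ± 0.18 SE, adjusted p = 0.0725), with groups that overlapped, and passed without hypoosmotic replicate 1 (0.0325). Wars1 had 7.19, 7.24, 6.44 and 6.73 on hypoosmotic and 7.44, 7.67, 7.07 and 7.58 on normoosmotic arrays (-0.54 ± 0.19 SE, adjusted p = 0.126). In both genes the arrays within a group spread over more than 0.5. At the other end stood Gars1, the glycyl enzyme, with a change of 0.165, and Farsb with 0.10, and neither passed. Aars1, Yars1 and Kars1, the alanyl, tyrosyl and lysyl enzymes, had changes of 0.01, -0.02 and 0.03.

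Several cytosolic synthetases sit in 1 large complex held together by the scaffold proteins Aimp1, Aimp2 and p18, the product of Eef1e1. Of its 10 measured genes, 1 was lower, where 4.61% of all genes were. Changes were below 0 in 8 of the 10, against 6773 of 14506 over all genes. The lower one was the scaffold gene Aimp2, with 5.79, 5.90, 5.12 and 5.54 on hypoosmotic arrays, against 6.30, 6.53, 6.85 and 6.24 on normoosmotic arrays (-0.89 ± 0.18 SE, adjusted p = 0.0170). It passed in 7 of 8 fits without 1 array (0.0227 to 0.0517, highest without normoosmotic replicate 3). None of the synthetases of the complex passed: Mars1 had a change of -0.21, Lars1 one of -0.17 and Iars1 one of -0.23. For Eprs1, the joined glutamyl and prolyl enzyme that the symbol rule does not take in, the change was 0.03 (95% interval -0.23 to 0.29).

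Cytosolic synthetase genes are textbook targets of ATF4, the factor translated when eIF2 is phosphorylated, which with a C/EBP partner binds a core of the form TGATGNAA. Their promoters are shown because so many hold this core. It was found on either strand in 7 of 16 cytosolic windows (43.8%), in 0 of 11 mitochondrial windows and in 3.98% of all windows. The capitals mark the match in stretches of 30 bases of 6 of these genes (GRCr8, RefSeq, read on the strand of the gene).
Cars1 (chr1:208225334-208225363): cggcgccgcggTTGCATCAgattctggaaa
Iars1 (chr17:15193658-15193687): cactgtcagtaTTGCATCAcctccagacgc
Mars1 (chr7:65023752-65023781): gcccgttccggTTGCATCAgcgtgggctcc
Nars1 (chr18:60275778-60275807): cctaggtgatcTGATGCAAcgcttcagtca
Tars1 (chr2:62114811-62114840): ctggcgtcccgTTGCATCAgctggttagct
Yars1 (chr5:146820183-146820212): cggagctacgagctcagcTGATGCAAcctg
Each match shown reads TTGCATCA or its complement TGATGCAA. The 7 genes with a match had changes from -0.62 to 0.01 with a median of -0.23, and 1 passed. The 9 without one had changes from -0.70 to 0.10 with a median of -0.24, and 2 passed. The changes of the 2 sets overlapped almost fully. A terminal oligopyrimidine start, meaning C at the start site followed by 4 bases that are each C or T, was found in 2 of the 74 windows (2.7%), against 2.63% of all windows, and RefSeq starts may miss the true start by some bases.

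Mitochondrial synthetase genes gave the largest rise and a larger fall than any cytosolic synthetase. Of the 11, 1 was higher and 1 lower, where 2.45% of all genes were higher and 4.61% lower. Rars2, the mitochondrial arginyl enzyme, had 5.64, 5.37, 4.99 and 5.18 on hypoosmotic arrays, against 4.49, 4.81, 4.22 and 4.26 on normoosmotic arrays. The nearest arrays of the groups were at 4.99 and 4.81. Rars2 was 1.80-fold higher (0.85 ± 0.17 SE, adjusted p = 0.0136). Yars2, the mitochondrial tyrosyl enzyme, had 4.30, 4.41, 4.43 and 4.48 on hypoosmotic arrays, against 5.22, 5.11, 5.35 and 5.08 on normoosmotic arrays. All hypoosmotic arrays lay at least 0.5 below all normoosmotic ones, and Yars2 was 1.72-fold lower (-0.79 ± 0.10 SE, adjusted p = 0.00355, the smallest of the 80 genes).

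The other mitochondrial enzymes mostly stood higher without passing. Of the 11 changes 8 were above 0, against 7733 of 14506 over all genes, and the median of the 11 was 0.21. The groups did not overlap, hypoosmotic above normoosmotic, in 5 genes, where 5.32% of all genes had such groups. Pars2, the prolyl enzyme, had 4.12, 3.87, 3.77 and 4.20 on hypoosmotic and 3.75, 3.20, 3.37 and 3.72 on normoosmotic arrays (0.48 ± 0.15 SE, adjusted p = 0.0850). Lars2, the leucyl enzyme, had 4.75, 4.68, 4.75 and 4.79 on hypoosmotic and 4.46, 4.48, 4.55 and 4.31 on normoosmotic arrays (0.29 ± 0.10 SE, adjusted p = 0.0951). In both, the hypoosmotic arrays were the higher ones without overlap.

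For 9 amino acids the mitochondrial and cytosolic enzymes are single genes whose symbols differ in the last digit, and in 7 of these pairs the mitochondrial change was the higher one. Hars2 had 0.23 against -0.60 for Hars1, Tars2 had 0.31 against -0.62 for Tars1, and Vars2 had 0.21 against -0.70 for Vars1. In the tyrosyl pair the order was reversed, with -0.79 for Yars2 and -0.02 for Yars1. Phenylalanine and proline were measured on both sides too, without such a pair: Fars2 had 0.15 against -0.33 for Farsa and 0.10 for Farsb, the 2 subunits of the cytosolic enzyme, and Pars2 had 0.48 against 0.03 for Eprs1. The differences between mitochondrial and cytosolic changes were not tested.

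**Figure D3:**
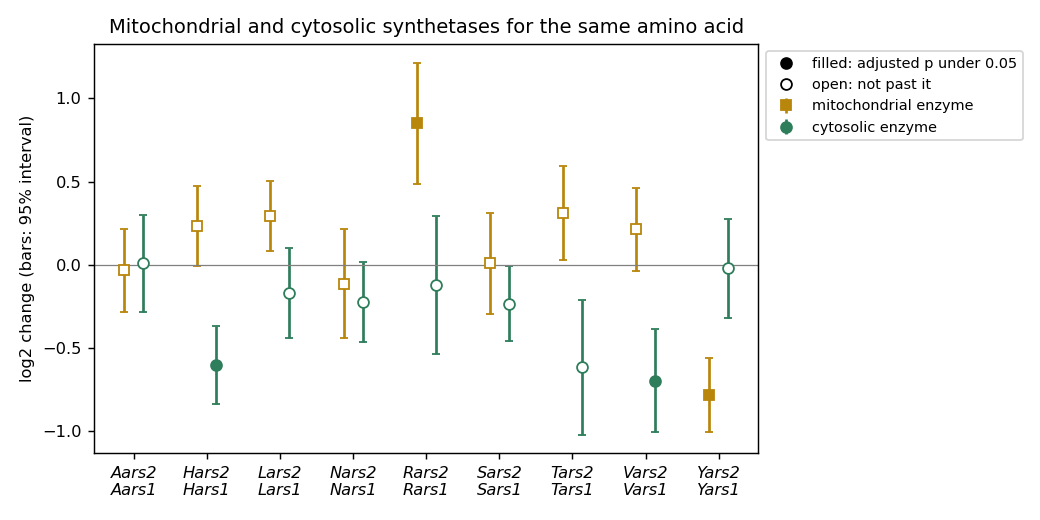
Log2 change (hypoosmotic minus normoosmotic, vertical axis) with its 95% interval for the mitochondrial (square) and cytosolic (circle) enzyme of the same amino acid, filled where the adjusted p was under 0.05. Rars2 lies highest at 0.85 and Yars2 lowest at -0.79, and the Hars, Tars and Vars pairs have the mitochondrial enzyme above 0 and the cytosolic enzyme below.

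The histidyl pair is shown as sequence because Hars1 and Hars2 are transcribed away from each other from 1 short stretch, and of the neighbours only Hars1 passed. Their RefSeq start sites were 144 bases apart. The stretch is printed on the plus strand (GRCr8, chr18:28672712-28672856), with the start base of Hars1, which runs to the left, and that of Hars2, which runs to the right, in capitals.
Hars1 and Hars2: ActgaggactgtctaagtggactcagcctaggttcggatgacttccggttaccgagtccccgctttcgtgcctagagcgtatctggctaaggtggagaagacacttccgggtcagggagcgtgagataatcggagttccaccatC
Hars2 had 5.44, 5.64, 5.44 and 5.51 on hypoosmotic arrays, against 5.44, 5.34, 5.06 and 5.26 on normoosmotic arrays. Its groups touched at 5.44, and its change of 0.23 ± 0.11 SE did not pass (adjusted p = 0.264). The 95% intervals were -0.01 to 0.47 for Hars2 and -0.84 to -0.37 for Hars1. The pair was chosen after its values were seen, and the difference between its changes was not tested.

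The arrays of a group were not alike in these genes. Averaged over the genes of a role, each centred on its mean over the 8 arrays, hypoosmotic replicate 3 was the lowest array in 5 of the 7 roles, at -0.32 for the cytosolic synthetases. The hypoosmotic and normoosmotic arrays did not overlap in the eIF4 role and in the role of eIF1, eIF5 and eIF6, where the hypoosmotic arrays were lower, nor in the mitochondrial synthetases, where they were higher. For the cytosolic synthetases hypoosmotic replicate 1, at 0.08, lay above normoosmotic replicate 3, at 0.01. Without hypoosmotic replicate 3 the median change was -0.18 for the cytosolic synthetases, -0.24 for the eIF4 role, -0.11 for eIF3 and 0.26 for the mitochondrial synthetases, and 10 members were lower. Over all genes this array was also apart, on the second principal component.

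**Figure D4:**
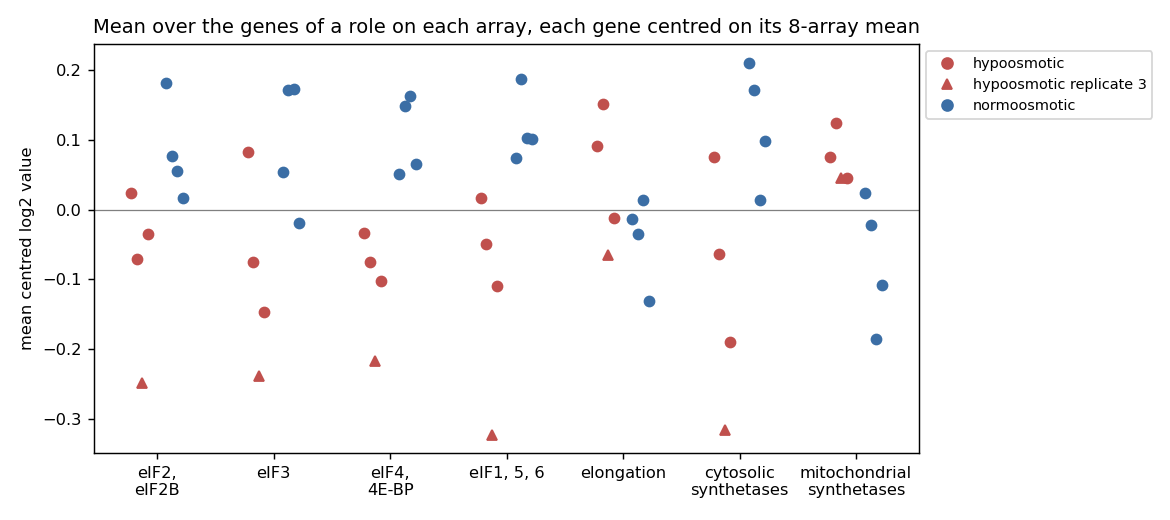
Mean log2 value over the genes of each role on each array, after centring every gene on its mean over the 8 arrays (vertical axis), hypoosmotic points left of normoosmotic ones. Hypoosmotic replicate 3 (triangle) is lowest in 5 of 7 roles, and the mitochondrial synthetases are the role in which all 4 hypoosmotic points lie above the normoosmotic ones.

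Neighbouring steps of the pathway, from lists chosen by known function, gave counts of their own. Of 7 genes of termination and ribosome recycling 3 were lower and 0 higher, where 4.61% of all genes were lower and 2.45% higher. Pelo, which with Hbs1l frees stalled ribosomes, had 7.24, 7.13, 7.44 and 7.37 on hypoosmotic arrays, against 7.68, 8.19, 8.56 and 8.05 on normoosmotic arrays (-0.82 ± 0.17 SE, adjusted p = 0.0157). Hbs1l itself fell by 0.40 on the log2 scale (adjusted p = 0.0363) and the release factor gene Etf1 by 0.41 (adjusted p = 0.0320). Pelo passed in all 8 fits without 1 array, Etf1 in 2 (0.0318 to 0.0876, highest without hypoosmotic replicate 2) and Hbs1l in 1 (0.0361 to 0.112, highest without normoosmotic replicate 3). Etf1 (0.0519) and Hbs1l (0.0848) missed the threshold once the arrays were quantile normalized again. The count of 3 became 1 with that normalization, and with any 1 array removed other than hypoosmotic replicate 3 or 4. All 70 cytosolic ribosomal protein genes stayed under the threshold (0 at an adjusted p under 0.05, 1 at an unadjusted p under 0.05, limma), with a median change of -0.02 that ran from -0.06 to 0.07 with 1 array removed. None of 9 mitochondrial translation factor genes, 3 poly(A)-binding protein genes or 4 further synthetase-related genes passed either, with 1, 1 and 0 at an unadjusted p under 0.05.

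For the lists on the tRNA side the shares over all genes were again 4.61% lower and 2.45% higher. Of 46 genes of tRNA processing, modification and export 8 were lower and 2 higher. Pus3, a pseudouridine synthase, had 6.40, 6.42, 5.97 and 6.92 on hypoosmotic arrays, against 7.67, 7.31, 7.44 and 7.41 on normoosmotic arrays (-1.03 ± 0.18 SE, adjusted p = 0.00839). Clp1, an RNA kinase of the tRNA splicing complex, fell by 0.79 (adjusted p = 0.00839). The dihydrouridine synthase genes Dus4l and Dus2 were higher, by 1.15 ± 0.17 SE (adjusted p = 0.00454) and 0.54 ± 0.10 SE (adjusted p = 0.0117). The 4 genes passed in all 8 fits without 1 array, while the number past the threshold in this list went to 5 when hypoosmotic replicate 2 was removed and to 4 when normoosmotic replicate 3 was. Of 17 genes of RNA polymerase III, which transcribes tRNA genes, and its factors, 5 were lower and 1 higher, with 3 past the threshold without normoosmotic replicate 3. Polr3e had 5.67, 5.38, 5.42 and 5.60 on hypoosmotic arrays, against 6.25, 6.34, 6.41 and 6.37 on normoosmotic arrays (-0.82 ± 0.10 SE, adjusted p = 0.00312). Bdp1, a TFIIIB subunit, fell by 0.94 (adjusted p = 0.00761) and Polr3f by 0.60 (adjusted p = 0.0177, 0.0578 without normoosmotic replicate 3), while Polr3k was higher by 0.67 ± 0.13 SE (adjusted p = 0.0143).

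**Figure D5:**
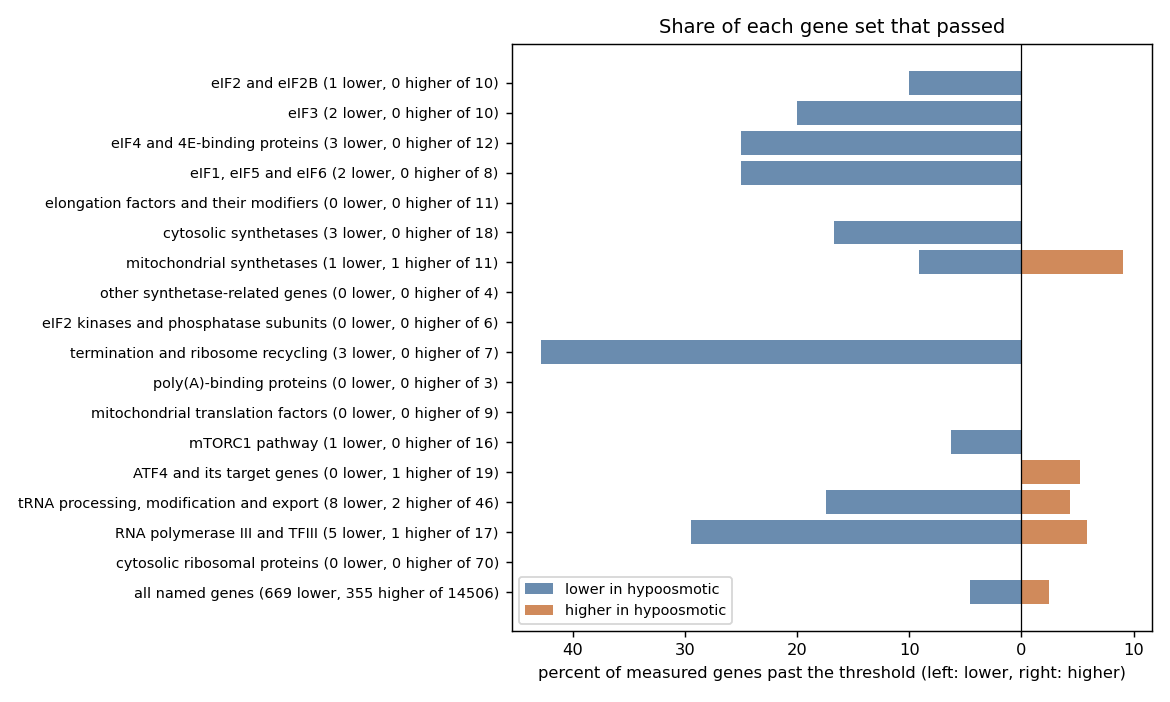
Percent of the measured genes of each set that passed the threshold (horizontal axis), lower in hypoosmotic livers to the left and higher to the right, with the counts beside each name. Elongation factors and cytosolic ribosomal proteins are among the sets with no bar, and all named genes (4.61% lower, 2.45% higher) stand at the bottom.

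Of genes that regulate translation factors, 3 lists were counted, where 7.06% of all genes passed. Of the 6 genes of eIF2 kinases and phosphatase subunits 0 passed, with 1 at an unadjusted p under 0.05 (limma). This was Eif2ak3, the kinase PERK of the endoplasmic reticulum, with 6.14, 5.86, 7.10 and 6.57 on hypoosmotic and 7.19, 6.86, 7.38 and 7.41 on normoosmotic arrays (-0.79 ± 0.24 SE, adjusted p = 0.0704). It passed with array weights (adjusted p = 0.0229), after median centring (0.0495) and without hypoosmotic replicate 3 (0.0138). Eif2ak1, Eif2ak2 and Eif2ak4, which sense heme, double-stranded RNA and missing amino acids, had changes of -0.07, -0.52 and 0.09. Atf4 had a change of -0.33 ± 0.12 SE (adjusted p = 0.143), and of 19 genes of ATF4 and its targets 1 was higher and 0 lower, with a median of 0.24. Removing hypoosmotic replicate 1 gave a median of 0.08, removing hypoosmotic replicate 2 gave 0.14 and removing normoosmotic replicate 3 gave 0.12. No gene of the list passed without hypoosmotic replicate 2, 3 or 4 or normoosmotic replicate 3 or 4. The higher one was Chac1, which degrades glutathione (0.79 ± 0.19 SE, adjusted p = 0.0280), and it passed in 3 of 8 fits without 1 array (0.0184 to 0.0863, highest without normoosmotic replicate 3). Of 16 mTORC1 genes 1 was lower, Rps6kb1, the S6 kinase, by 0.45 (adjusted p = 0.0473). It passed in 1 of 8 such fits (0.0462 to 0.127, highest without normoosmotic replicate 3) and missed the threshold once the arrays were quantile normalized again (0.0939). Mtor itself had a change of -0.11 (95% interval -0.39 to 0.17).

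As a check of the tissue, all 10 hepatocyte markers were above near-background level, with a mean over them of 11.91 to 11.93 on hypoosmotic and 11.81 to 11.98 on normoosmotic arrays, and 0 of the 10 passed. Of 34 markers of other liver and blood cells 2 passed, where 7.06% of all genes did. Both were endothelial: Kdr was higher by 0.66 and Oit3 fell by 0.46. With 1 array removed, Kdr passed in 2 of 8 fits and Oit3 in 1. Of the 6 endothelial changes 5 were above 0, with a median of 0.33, and 4 had an unadjusted p under 0.05 (limma). Over all 14506 genes, 7733 changes were above 0 and 2997 had such a p. Pecam1 had a change of 0.35 with groups that did not overlap, and Lyve1 one of 0.41. The means over the 10 Kupffer cell markers were 6.09 to 6.88 on hypoosmotic and 6.04 to 6.56 on normoosmotic arrays, and over the 6 endothelial markers 7.21 to 7.63 on hypoosmotic and 7.08 to 7.28 on normoosmotic arrays. For the 8 stellate cell markers they were 5.89 to 6.55 on hypoosmotic and 6.12 to 6.18 on normoosmotic arrays. Their changes were above 0 in 7 of 8, with a median of 0.21. The exception, Reln, had the smallest p of the 8 and a change of -0.57 (limma, adjusted p = 0.0850). Changes were above 0 for 3 of 10 hepatocyte, 5 of 10 Kupffer cell, 5 of 6 lymphocyte and neutrophil and 3 of 4 bile duct markers. The lymphocyte and neutrophil markers Cd3e, Cd3g, S100a8 and S100a9 and the bile duct marker Krt7 were near background. In whole liver RNA, fewer cells of a type and less RNA per cell cannot be told apart, and the part of these cell types in the results was not tested.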

How the data were processed

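RMA, Transcriptome Analysis Console 4.0 and Affymetrix Expression Console are named, without roles, per the submitters' processing notes. The authors deposited log2 values with 2 decimals for 27596 probe sets on 8 arrays. RMA equalises array distributions at the level of single probes, so a shift common to most genes cannot be seen. The array medians of the deposited values still ran from 3.92 on normoosmotic replicate 2 to 4.05 on hypoosmotic replicate 3. The probes' genome build is not given in the sources used here, and scanner files were not used here. Probe sets with 1 symbol in the platform annotation (15310, with 323 of several symbols and 11963 unnamed here) were named through a RefSeq table, and 14506 genes remained. Groups and replicate numbers came from the titles. Group, the only term, was tested on both sides in R 4.3.3 with lmFit and eBayes of limma 3.58.1 over all named genes. Plots were made with matplotlib 3.10.9 in Python 3.11.15. Near background means a mean under 3.37, which 95% of 53 odorant receptor genes did not exceed. On simulated data the fit recovered 79% of genes given a log2 change of 1 and 29% of genes given a smaller one. The members and lists were chosen with earlier results of these data known. Named genes are all members past the threshold, the 2 with the smallest p in each role, 16 fixed genes (Eif4g1 not analysed here) and up to 4 past the threshold from each list, with Eif2ak1 to Eif2ak4, Atf4 and Mtor. Members named beside these, including the synthetase pairs, those with motifs, and the endothelial markers, were chosen after their values were seen. The alternatives removed each array in turn, added the replicate number, let the variance follow intensity (robust), weighted arrays, quantile normalized or median centred them, dropped the 30% dimmest genes, averaged probe sets or tested each one, or required a fold change above 1.2. No set was tested for enrichment. The promoter stretches of 1 synthetase gene are not reported here.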

Additional observations from a re-analysis of the deposited data

Results flagged for a closer look

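In 8 of the 96 groups of 4 arrays behind the 48 named genes, 1 array stood far from the other 3, and chance flags about 1 group in 20. Hypoosmotic replicate 3 was the low array for Vars1 (4.51, others 5.04 to 5.13), Eif4ebp2 (7.32, others 7.48 to 7.50), Clp1 (3.97, others 4.46 to 4.56) and Eif2ak2 (7.43, others 8.59 to 8.73). Hypoosmotic replicate 1 was low for Eif2ak4 (4.96, others 5.24 to 5.28) and high for Eprs1 (9.42, others 9.17 to 9.19). Hypoosmotic replicate 4 was high for Eif4e (8.02, others 7.89 to 7.91), and normoosmotic replicate 1 was high for Clp1 (5.28, others 5.10 to 5.13). Without hypoosmotic replicate 3 Vars1 and Clp1 still passed, and without hypoosmotic replicate 4 Eif4e did.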

How the results depend on the processing

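Against a minimum fold change of 1.2, 83 genes and 2 lower members (Eif4enif1 and Yars2) passed. Leaving out 1 array gave 464 to 1050 genes and 5 to 13 lower members, with less power since fewer arrays remained. Under the other 8 alternatives 11 to 13 members were lower and 1 or 2 higher, and over all 17 alternatives the members' median change was -0.15 to -0.07. With the replicate block 1027 genes passed, with 12 members lower and 2 higher: Eif3b (adjusted p = 0.0622, limma) and Eif4e (0.0646) no longer passed, while Tars1, Wars1 and Pars2 did. Outside the members the block ended the calls of Etf1 (0.0501) and Rps6kb1 (0.0803), brought Eif2ak3 past the threshold (0.0217) and changed no other call of a named gene. Deviations of same-numbered arrays correlated at 0.0068 to 0.26. Since not every pair was above 0.1, the numbers were not taken as pairs, although 6 of 8 arrays correlated best with their own number, a hint of pairing from the data and not from the design. No member past the threshold changed sign. Among genes that did not pass, the log2 change turned for Eif2b5 (0.000312 after quantile normalization) and Eprs1 (-0.0125 after median centring). Leaving out 1 array gave -0.12 to 0.005 for Eif2ak1 (above 0 without hypoosmotic replicate 3), -0.03 to 0.20 for Eif2ak4 (below 0 without normoosmotic replicate 4), -0.047 to 0.13 for Eif4ebp1 (below 0 without hypoosmotic replicate 1 or 2) and -0.043 to 0.10 for Eprs1 (below 0 without hypoosmotic replicate 1 or normoosmotic replicate 4). The causes were not tested. The arrays were few and their depth cannot be given, so a missed threshold does not show that a level did not differ.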
